A study of Mus musculus with 5 samples.

Results

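The genes described here are 10 imprinted growth regulators, Cdkn1c, H19, Meg3, Ndn, Peg3, Grb10, Igf2r, Dlk1, Plagl1 and Impact, read out in hematopoietic stem cells (HSCs) of mice with and without the RNA-binding protein SYNCRIP. They were taken by symbol from a table of 24046 genes, and all 10 were found. Both groups were HSCs of mouse donors homozygous for a floxed Syncrip allele. WT donors (Syncrip f/f) lacked the Mx1-Cre transgene, and KO donors (Syncrip Δ/Δ after excision) carried it. Donor marrow from mice of 6 to 8 weeks of age was transplanted into irradiated congenic recipients that carry the CD45.1 form of the CD45 antigen. All recipients of both groups were injected with polyinosinic:polycytidylic acid (pIpC) after 6 weeks of engraftment, on 2 consecutive days, and HSCs were sorted 3 weeks later, 9 weeks after the transplant. The sort kept donor (CD45.2+) cells that were Lin-, Sca1+, cKit+, CD150+ and CD48-. WT was sequenced as 3 libraries (WT 1, WT 2 and WT 3), KO as 2 (KO 2 and KO 3), and each was a bulk RNA-seq library made with a low-input kit. As a model, Mx1-Cre is driven by an interferon-responsive promoter that is active in many cell types of the donor marrow, both groups had been exposed to pIpC, and the sources used here do not say whether a library came from 1 recipient or a pool.

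Imprinted genes are transcribed mainly from the allele of 1 parent, which is set in the germ line by DNA methylation at control regions and kept through cell division. Many of them act on growth: genes expressed from the maternal allele, such as Cdkn1c, H19, Igf2r and Grb10, tend to restrain it, and several paternally expressed ones promote it. In HSCs the network is known for quiescence. Cdkn1c codes for p57, an inhibitor of cyclin-dependent kinases, Ndn codes for necdin, a partner of p53 and E2F proteins, and H19 and Meg3 are maternally expressed long noncoding RNAs of clusters that also hold the growth factor gene Igf2 and the Notch-family ligand gene Dlk1. The table sums both alleles of a gene, so the values below are total levels and hold nothing on the parental origin of the RNA.

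The deposited values were normalized read counts, that is, reads divided by a factor for the size of the library, and whole reads could be recovered for every value. Depth was 21748781 to 22779536 reads in WT and 18308876 and 12539599 reads in KO 2 and KO 3. Syncrip itself had 1944, 1440 and 1794 normalized reads in the WT libraries against 294 and 343 in the KO libraries (limma log2 fold change -2.43), lower in both KO libraries. Its call by limma was lost without any 1 of the WT libraries and without the trend on length and GC described below, where it stood at -1.47 (limma adjusted p = 0.138). Genes of the sorting gate and of HSCs were present in all libraries, and all 10 of that list passed the filter on low values. Other cells' genes were also present. The 10 genes of the myeloid list took 6.16% to 7.44% of the reads in WT, 5.46% in KO 2 and 2.64% in KO 3. The share of the 12 adipocyte genes was 0.130% in KO 2 and no more than 0.00299% elsewhere. The 15 genes of stroma and endothelium took 0.0193% in WT 2 and 0.00523% to 0.00923% in the others.

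To show the kind of sequence from which the 2 members with the lowest limma p, Igf2r and Grb10, are transcribed, the 250 bases upstream of each RefSeq start are printed, 5′ to 3′ on the gene's strand, with each CG dinucleotide in capitals. They come from RefSeq on GRCm38.p6, and both genes lie on the minus strand. Grb10 has an upstream start and one further downstream.
Igf2r, chr17:12769707-12769956: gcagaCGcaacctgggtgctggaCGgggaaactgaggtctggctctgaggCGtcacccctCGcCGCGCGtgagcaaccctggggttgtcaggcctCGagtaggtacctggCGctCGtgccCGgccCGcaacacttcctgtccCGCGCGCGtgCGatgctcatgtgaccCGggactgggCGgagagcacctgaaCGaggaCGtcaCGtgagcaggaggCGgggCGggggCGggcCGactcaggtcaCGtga
Grb10 upstream start, chr11:12037421-12037670: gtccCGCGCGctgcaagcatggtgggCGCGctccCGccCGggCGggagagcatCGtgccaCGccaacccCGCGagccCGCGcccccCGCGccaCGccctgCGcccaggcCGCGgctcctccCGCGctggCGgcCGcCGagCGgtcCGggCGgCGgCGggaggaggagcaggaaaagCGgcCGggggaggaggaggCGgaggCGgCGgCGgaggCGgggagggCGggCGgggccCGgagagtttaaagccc
Grb10 downstream start, chr11:12027972-12028221: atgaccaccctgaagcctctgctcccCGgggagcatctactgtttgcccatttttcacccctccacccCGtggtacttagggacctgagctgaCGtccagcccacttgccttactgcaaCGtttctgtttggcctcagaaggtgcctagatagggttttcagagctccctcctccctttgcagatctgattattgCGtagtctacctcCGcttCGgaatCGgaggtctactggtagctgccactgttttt
The first 2 stretches are rich in CG. The Igf2r stretch held 27 CG dinucleotides at 69.2% GC and the upstream Grb10 stretch 40 at 81.2% GC, whereas the downstream Grb10 stretch held 8 at 54.0% GC. The median over 32851 RefSeq promoters of this length was 6 at 52.4% GC. Promoters of 7 of the genes described here were included, with 9 starts between them. Cdkn1c, H19 and Impact were not included, so the counts below do not cover them. The letters TGCCGC, the core bound by the imprint-keeping protein ZFP57 when methylated, were found on either strand of 2 of the 9 stretches (Plagl1 and 1 start of Meg3) and of 8.68% of all promoters. GGGGCCCC, which reads the same on both strands and is the core of the PLAGL1 motif, was found in 1 of the 9 (Peg3) and in 0.889% of all promoters. These matches describe the letters of the window and no more.

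Of the 10 genes, 6 were measured well enough to be tested (a normalized count of at least 10 in at least 2 libraries), namely Igf2r, Grb10, Cdkn1c, Ndn, Impact and Plagl1. The other 4, H19, Peg3, Meg3 and Dlk1, fell below that filter. H19 and Peg3 were at 0 in all 5 libraries. A count of 0 allows up to 3 reads, which is 0.132 to 0.138 in WT, 0.164 in KO 2 and 0.239 in KO 3, per 1000000 reads of the library, and these limits cover counting error only. Meg3 had no read in any library but KO 2, where it had 5, or 0.273 per 1000000 reads (95% exact Poisson interval 0.0887 to 0.637). Dlk1 had 1, 2 and 0 reads in WT 1, WT 2 and WT 3, none in KO 2, and 23 in KO 3. The Dlk1 reads of KO 3 came to 1.83 per 1000000 reads (95% exact Poisson interval 1.16 to 2.75), above the interval of the highest WT library, WT 2 (0.0111 to 0.332). That is a comparison of libraries, since the other KO library had none.

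The chromosomal neighbours of these 4 genes were likewise at or near 0. In the cluster of Dlk1 and Meg3 on chromosome 12, none of the 6 listed genes passed the filter. Rian, the noncoding RNA downstream of Meg3, the retrotransposon-derived Rtl1 and the deiodinase gene Dio3 were at 0 in all libraries, and Mirg, the microRNA host gene of the cluster, had a normalized count of 0.868 in WT 2 alone. In the cluster of Peg3, a zinc finger gene, Zim1 was at 0 throughout and Usp29 had 1.71 in WT 3 alone. Igf2, which shares its enhancers with H19, was at 12.2 in WT 2, 8.22 in KO 2 and 0 in the other 3 libraries. WT 2 and KO 2 are also the libraries with the highest levels of stroma genes and adipocyte genes, respectively, and the part of those cells in the Igf2 and Meg3 reads was not tested. In KO 3, the library with the Dlk1 reads, adipocyte genes took 0.000375% of the reads and stroma and endothelium genes 0.00553%.

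**Figure D1:**
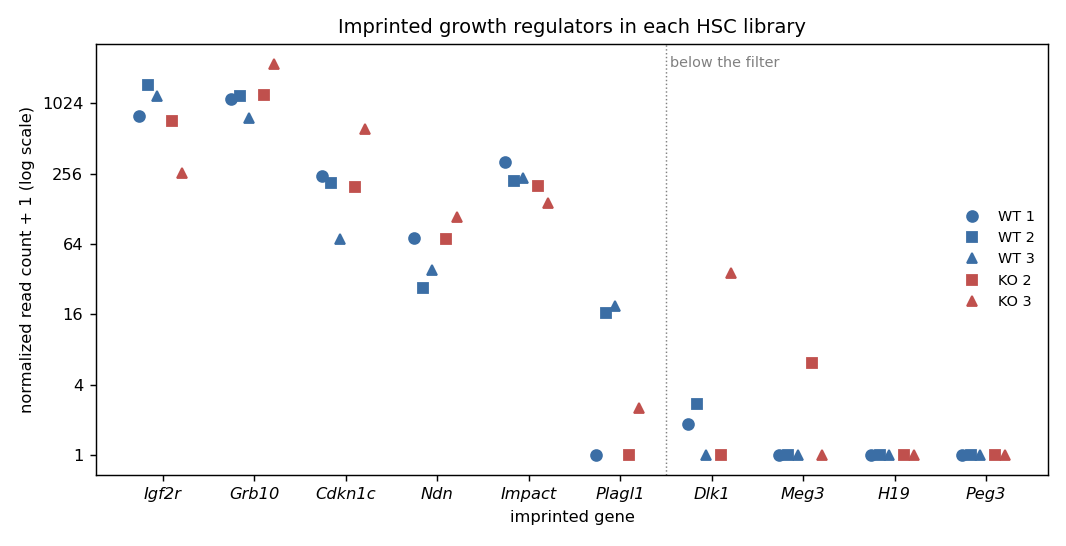
Normalized read count plus 1 (log scale) of the 10 imprinted growth regulators in each library, with WT libraries in blue and KO libraries in red and 1 symbol per library. Grb10 lies higher in both KO libraries, Igf2r and Impact lie lower in both, and the 4 genes right of the dotted line were at or near 0 outside KO 3 (Dlk1, 34.9) and KO 2 (Meg3, 5.14).

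Levels can be set side by side between genes only per length of transcript. In WT libraries the order of normalized reads per kilobase began with Grb10 at 202 ± 43.8 (SD, n = 3). Igf2r followed at 129 ± 37.6, Cdkn1c at 92.1 ± 48.9 and Impact at 68.8 ± 14.7, and each of these 3 overlapped the gene before it in the ranges of the WT libraries. Ndn at 12.1 ± 6.28 and Plagl1 at 2.13 ± 1.86 lay below the range of the gene before them. In KO 2 Grb10 stood at 240.5, Cdkn1c at 102, Igf2r at 81.7, Impact at 53.0 and Ndn at 18.9. In KO 3 Igf2r was below the others named here, with Grb10 at 443, Cdkn1c at 324, Impact at 37.9, Ndn at 29.2 and Igf2r at 28.9 normalized reads per kilobase. The lengths are those of the longest annotated transcript of each gene (GENCODE M21, GRCm38), and the isoforms used in HSCs were not resolved.

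To ask whether the imprinted growth regulators differed by genotype, all 13661 genes above the filter were tested with limma on log2(normalized count + 1). The threshold for a call was an adjusted p under 0.05 (Benjamini-Hochberg, over all genes tested) together with a difference of 2-fold or more. limma called 0 of the 6 tested members, and 0.00732% of all genes tested, which was Syncrip alone. Their limma adjusted p ran from 0.102 (Igf2r) to 0.446 (Plagl1). Igf2r and Grb10 had an unadjusted limma p under 0.05, as had 27.8% of all genes tested. edgeR, run on the recovered reads, also called 0 of the 6, at a background of 0.0146%, with 2 members at an unadjusted p under 0.05. DESeq2, the tool of the study, called 1 of the 5 members to which it gave an adjusted p. It was Igf2r, which was lower, where DESeq2 called 4.75% of genes lower and 4.17% higher. Here and below, these shares called by DESeq2 are over the 11837 genes to which it gave an adjusted p.

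By the values alone, both KO libraries lay beyond all 3 WT libraries for 3 of the 6, Grb10 above (23.9% of all genes tested) and Igf2r and Impact below (23.2%). The share of all genes tested that were separated in either direction was 47.1%, so a count of 3 of 6 is close to the background. The 3 genes that overlapped were Cdkn1c, Ndn and Plagl1. With 3 libraries against 2 an exact permutation test of a single gene cannot reach p = 0.05. The median log2 fold change of the 6 was 0.06 beside 0.02 over all genes tested, with 3 above 0 and 3 below.

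The 2 KO libraries differed in how far they stood from WT. KO 3, the shallower library, lay farther from the WT mean than KO 2 for every tested member except Plagl1. When KO 2 was left out, limma called 3 members, Igf2r, Grb10 and Cdkn1c, but 18.3% of all genes were then called as well. That fit has 1 KO library, which is assumed to vary like the WT libraries. KO 3 alone lay beyond all WT values for 5 of the 6 members, where 78.3% of all genes did. When WT 1 was left out instead, 5 of the 6 were separated, with a background of 58.6%. Those 5 include Plagl1, which was at 0 in WT 1 and passed the filter through the other WT libraries, so its separation follows from leaving WT 1 out. These counts rest on which libraries enter, and the differences by genotype below are given for both KO libraries.

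**Figure D2:**
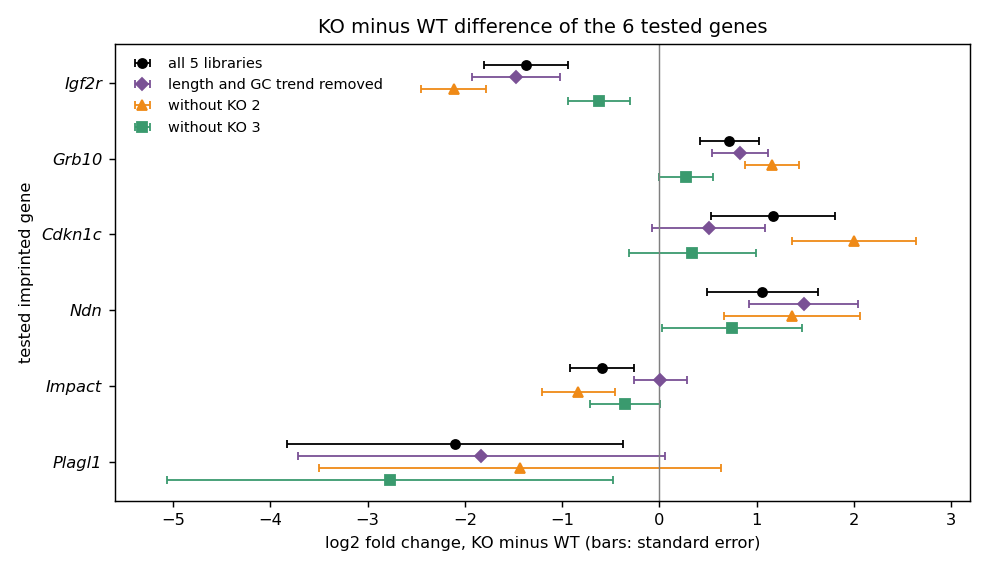
Log2 fold change (KO minus WT, limma, bars are standard errors) of the 6 tested members, with all 5 libraries in black, after removal of a trend on transcript length and GC content in purple, without KO 2 in orange and without KO 3 in green. Igf2r lies below 0 and Grb10 above 0 in all 4 settings, and Impact moves from -0.59 to 0.01 when the trend is removed.

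Igf2r codes for the receptor that carries IGF2 and mannose 6-phosphate tagged enzymes to lysosomes and so removes IGF2 from the cell surface. It lies at chr17:12682406-12769664 on the minus strand (GENCODE M21), with 8887 bases in its longest transcript. Its normalized read count was 802, 1468 and 1181 in WT 1, WT 2 and WT 3, against 726 in KO 2 and 257 in KO 3. Both KO values were below all WT values, KO 2 only just. WT averaged 1150.1 ± 334 (SD, n = 3), KO averaged 491 ± 332 (SD, n = 2), or 42.7% of WT. The log2 fold change was -1.37 (SE 0.43, 95% interval -2.36 to -0.38, limma adjusted p = 0.102). By DESeq2 it was -1.22 (SE 0.44, adjusted p = 0.0343), which passed the threshold, and over the alternatives the adjusted p ran from 0.00486 to 0.405. Without KO 2 the difference was -2.12 and without KO 3 it was -0.62, so that the size rests on KO 3. In a bulk sample, fewer cells of a type and less RNA per cell cannot be told apart. Of the 10 genes of the myeloid list, 4 were lower in both KO libraries (Lyz2, Ltf, Ngp and Camp, beside 23.2% of all genes) and 6 overlapped, of which Elane and Prtn3 had log2 fold changes above 0 (0.019 and 0.30, or -0.47 and -0.44 without the trend on length and GC). DESeq2 called 3 of the 10 lower, beside 4.75% of genes, and limma and edgeR called 0. An unadjusted limma p under 0.05 was found for 6 of the 10, beside 27.8% of all genes tested. The summed share of the 10 was 6.16% to 7.44% in WT and 5.46% and 2.64% in KO, although the Lin- gate is meant to leave mature myeloid cells out. The part of such cells in the Igf2r difference was not tested.

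The other genes of the Igf2r domain were of 2 kinds. Airn, the noncoding RNA transcribed from the paternal allele through Igf2r, was at 2.50, 6.08 and 0 in WT and 10.3 and 0 in KO, below the filter. Slc22a3, a cation transporter gene imprinted in placenta, was measured well, and its normalized count was 996, 796 and 877 in WT against 997 and 1882 in KO. KO 2 thus lay at the level of WT 1 and KO 3 above it (log2 fold change 0.63, limma adjusted p = 0.187), which is the opposite direction to Igf2r.

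Grb10 codes for an adaptor that binds the insulin and IGF1 receptors and dampens their signal. It lies at chr11:11930508-12038683 on the minus strand. Its normalized read count was 1109, 1187 and 770.4 in WT 1, WT 2 and WT 3, against 1217 in KO 2 and 2243 in KO 3. Both KO values lay above WT, KO 2 by little over WT 2. WT averaged 1022 ± 222 (SD, n = 3), KO averaged 1730.1 ± 726 (SD, n = 2), and the log2 fold change was 0.72 (SE 0.30, 95% interval 0.03 to 1.41, limma adjusted p = 0.168). It was 1.16 without KO 2 (limma adjusted p = 0.0183) and 0.28 without KO 3, and the adjusted p of the alternatives ran from 0.0183 to 0.668. Of its neighbours, Ddc, an amino acid decarboxylase gene, had a normalized count of 3.33 to 3.47 in WT, 20.6 in KO 2 and 1.52 in KO 3, below the filter, and Cobl was at 0 in all 5.

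Around these 2 genes, the IGF and insulin axis was listed. Of 26 listed genes 18 were tested, limma called 0 of them (7 at an unadjusted p under 0.05), edgeR 0 and DESeq2 1, Igf2r, at the same backgrounds. Both KO values lay above WT for 6 (Irs2, Igfbp4, Akt1, Akt2, Grb14 and Grb10) and below for 2 (Pik3ca and Igf2r), beside 23.9% and 23.2% of all genes tested. A log2 fold change above 0 was found for 13 of the 18, beside 6979 of all 13661 genes tested. The median log2 fold change of the 18, which include Grb10 and Igf2r, was 0.49, beside 0.02 over all genes tested. It was 0.22 with the length and GC trend removed, beside -0.01 over all genes. Akt1 then turned from 0.54 to -0.16 and Pik3ca from -0.50 to 0.14. Igf1, the ligand, had a normalized count of 30.8, 33.8 and 24.0 in WT and 29.8 and 10.6 in KO. Igf1r, the receptor for both IGFs, had 1091, 1361 and 1378 in WT and 1357 and 1318 in KO, so the KO libraries lay within the WT range (log2 fold change 0.08, 95% interval -0.37 to 0.52, limma adjusted p = 0.820). Insr, the insulin receptor, overlapped as well at 387, 480 and 577 in WT and 689 and 345 in KO (log2 fold change 0.04, limma adjusted p = 0.951). The sign of Igf1, Igf1r and Insr changed under at least 1 alternative. Grb14, the non-imprinted paralog of Grb10, was low at 14.2, 20.8 and 9.43 in WT and 33.9 and 21.3 in KO (limma adjusted p = 0.456).

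Cdkn1c, the gene of p57, restrains entry into the cell cycle and is among the genes most tied to HSC quiescence. It lies at chr7:143458339-143461050 on the minus strand, and 30.7% of its exonic bases are shared with Gm44732 on the opposite strand. The library kit does not mark strand, so reads of the pair cannot be told apart. Its normalized read count was 244, 212 and 69.4 in WT 1, WT 2 and WT 3, against 194 in KO 2 and 617 in KO 3. KO 2 lay within the WT range, KO 3 above it, and WT 3 stood lowest of all 5. WT averaged 175 ± 92.9 (SD, n = 3), KO averaged 405 ± 299 (SD, n = 2). The log2 fold change was 1.17 (SE 0.64, 95% interval -0.29 to 2.63, limma adjusted p = 0.262), a difference within the spread between replicates. It was 2.00 without KO 2, 0.34 without KO 3 and 0.61 without WT 3, where limma's adjusted p was 0.0489, 0.830 and 0.572.

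Cdkn1c belongs to a domain of maternally expressed genes under the noncoding RNA Kcnq1ot1, which is read from the paternal allele and keeps its neighbours silent there. Phlda2, which restrains placental growth, had a normalized count of 101, 94.6 and 56.6 in WT and 114 and 241 in KO. Slc22a18, a transporter gene next to it, had 94.1, 72.0 and 63.4 in WT and 106 and 220.2 in KO. Both were separated upward, with log2 fold changes of 1.02 (SE 0.48, limma adjusted p = 0.20) and 1.01 (SE 0.45, limma adjusted p = 0.189). Without the trend on length and GC these were 0.60 and 0.52, and the groups overlapped for both genes. Kcnq1ot1 itself had 1482, 1151 and 1038 in WT and 1024 and 715 in KO, lower in both KO libraries (limma log2 fold change -0.50, SE 0.25, adjusted p = 0.219). That sign turned when the length and GC trend was removed, where the value was 0.12. Tssc4 was separated upward, with a log2 fold change of 0.49 that became -0.15 without the trend, and Ascl2, Osbpl5 and Nap1l4 overlapped. Of the 11 listed genes of this region, 8 were tested and limma, edgeR and DESeq2 each called 0 at 2-fold, with 1 gene, Tssc4, at an unadjusted limma p under 0.05. Of the 8, 3 were separated upward and 1 downward, beside 23.9% and 23.2% of all genes tested. Without the trend on length and GC, 0 were separated upward and 1 downward, beside 34.2% of all genes in either direction.

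Cdkn1c was lowest in WT 3 and highest in KO 3, as were 7 of the 10 genes of the sorting gate and of HSCs, the other 3 being Kit, Ly6a and Ptprc. The share of all genes with this order was not computed. KO 3 alone lay beyond all WT values for 78.3% of all genes tested. Over the 10 genes of the list, the median log2 difference of WT 1 from the other WT libraries was 1.13, that of WT 2 -0.05 and that of WT 3 -0.97. KO 2 stood at -0.02 and KO 3 at 1.04 from the WT mean. Fgd5, an HSC reporter gene, had a normalized count of 318, 223 and 67.7 in WT and 90.5 and 598 in KO. Hlf, an HSC transcription factor gene, had 1719, 1028 and 631 in WT and 924 and 2114 in KO. For 9 of the 10 genes the groups overlapped, where 47.1% of all genes were separated. The other was Ptprc, the gene of the CD45 antigen, with 4635, 3735 and 4550 in WT and 2009.6 and 1271 in KO (limma log2 fold change -1.42, SE 0.23, adjusted p = 0.0815), which DESeq2 called lower, as it did 4.75% of all genes. Ptprc and Kit were the 2 genes of the list with a log2 fold change below 0. The list took 0.0804% to 0.120% of the reads in WT and 0.0763% and 0.113% in KO. Of 10 genes that mark cells the gate leaves out, a list that also holds Ptprc, 8 were found and 6 were tested. Both KO values lay below WT for 3 of them (Cd48, Ptprc and Itgam, beside 23.2% of all genes), 3 overlapped and 2 had a log2 fold change above 0. DESeq2 called 3 genes of that list lower, Ptprc among them, beside 4.75% of genes, and limma and edgeR called 0. The summed share of that list was 0.0685% to 0.0865% in WT, 0.0411% in KO 2 and 0.0210% in KO 3. What part of the Cdkn1c values follows from the purity of the sort was not tested.

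**Figure D3:**
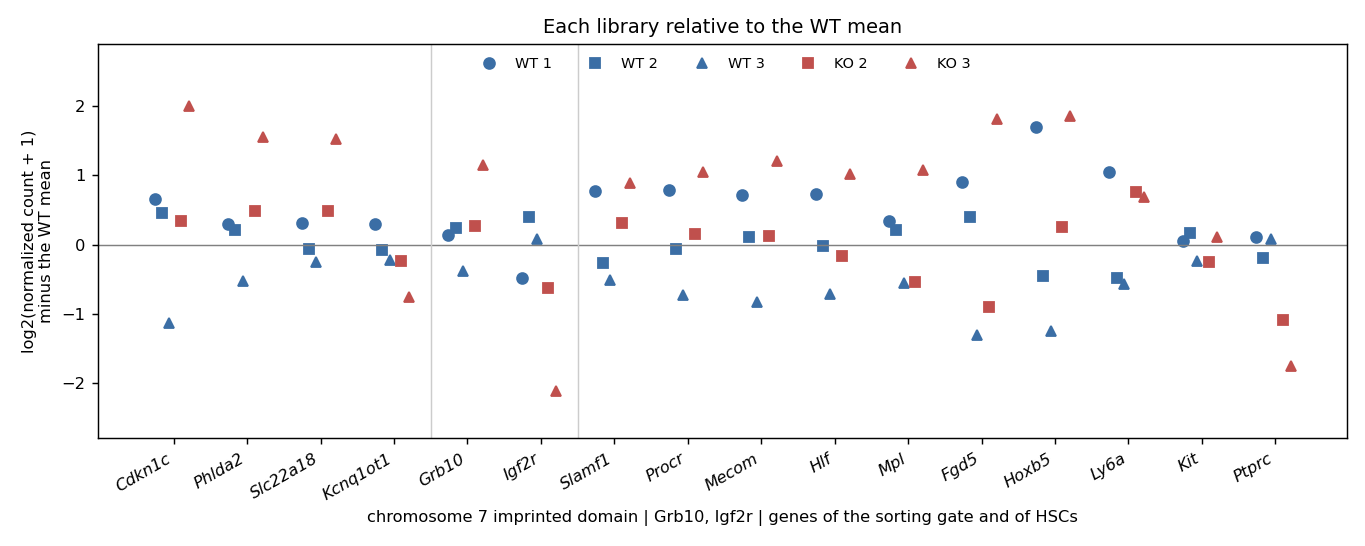
Log2(normalized count + 1) minus the mean of the 3 WT libraries, for genes of the Cdkn1c domain (left), Grb10 and Igf2r (middle) and all 10 genes of the sorting gate and of HSCs (right), with WT in blue, KO in red and 1 symbol per library. WT 3 is lowest and KO 3 highest for Cdkn1c, Phlda2, Slc22a18, Grb10 and 7 of the 10 genes on the right, not for Ly6a, Kit and Ptprc, while Igf2r, Kcnq1ot1 and Ptprc are lowest in KO 3.

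The kin of p57 and its kinase targets were listed as well, and the 4 genes named here are among the 6 that were separated. Cdkn1a, which codes for p21 and is a target of p53, had a normalized count of 67.4, 155 and 68.6 in WT and 388 and 158 in KO (limma log2 fold change 1.46, SE 0.53, adjusted p = 0.128). Cdkn1b, which codes for p27, had 225, 237 and 155 in WT and 283 and 346 in KO (log2 fold change 0.63, limma adjusted p = 0.230). KO values of both lay above WT, although KO 3 exceeded WT 2 by little for Cdkn1a. Ccnd1, the cyclin D1 gene, had 127, 115 and 132 in WT and 282 and 530.0 in KO (limma log2 fold change 1.63, SE 0.36, adjusted p = 0.0815). Ccne2, a cyclin E gene, had 1310.4, 854 and 1481 in WT and 450.2 and 204 in KO (limma log2 fold change -1.96, SE 0.37, adjusted p = 0.0815). Of the 11 genes of this list, all tested, limma called 0 (4 at an unadjusted p under 0.05), edgeR called 0, and DESeq2 called Ccnd1 and Cdkn1a higher and Ccne2 lower, where it called 4.17% of all genes higher and 4.75% lower. The groups were separated for 6 of the 11, 5 of them upward, beside 47.1% of all genes tested and 23.9% upward. Without the trend on length and GC, 4 were separated upward and 2 downward, beside 34.2% of all genes in either direction. Ccne2 then stood at -0.91 and the groups overlapped for Cdkn1a at 1.16.

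Ndn, the gene of necdin, is intronless and paternally expressed, and necdin is known to hold HSCs back from cycling under p53. It lies at chr7:62346569-62350262 on the plus strand. Its normalized read count was low, 70.8, 26.0 and 37.7 in WT 1, WT 2 and WT 3 and 69.9 and 108 in KO 2 and KO 3. KO 2 lay just under WT 1, so the groups overlapped by that pair. WT averaged 44.8 ± 23.2 (SD, n = 3), KO averaged 88.9 ± 26.8 (SD, n = 2), with a log2 fold change of 1.06 (SE 0.57, 95% interval -0.25 to 2.36, limma adjusted p = 0.257). The difference kept its sign in all 15 alternatives, from 0.74 to 1.84, and its adjusted p was 0.177 or more in each. In its cluster, the zinc finger gene Mkrn3 and Peg12 were also low. Peg12 had 27.5, 27.8 and 12.9 in WT and 50.4 and 51.6 in KO, separated upward (log2 fold change 1.21, limma adjusted p = 0.242). Snrpn had 1.67, 7.81 and 0 in WT and 37.0 and 6.07 in KO, with exactly the counts of Snurf, which shares its transcript. Magel2, the gene next to Ndn, was at 0 in all libraries.

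Among the partners of necdin, both KO values lay above WT for Trp53, the gene of p53, at 4893, 4885 and 4825.5 in WT and 6293 and 7132 in KO (log2 fold change 0.46, limma adjusted p = 0.118), a difference of 0.20 without the trend on length and GC. E2f1, a cell cycle factor that necdin binds, had 1968, 2546 and 2239 in WT and 2885 and 3203 in KO (log2 fold change 0.44, limma adjusted p = 0.163). Bmi1, a Polycomb gene of self-renewal, was lower at 792, 468 and 630 in WT and 362 and 463 in KO (log2 fold change -0.59, limma adjusted p = 0.214). E2f1 and Bmi1 changed sign when the length and GC trend was removed, to -0.16 and 0.16. Of the 7 genes of the list, Ndn included, 6 were tested and limma, edgeR and DESeq2 called 0 at 2-fold, with 2 at an unadjusted limma p under 0.05. Both KO values lay above WT for 3 of the 6 and below for 1, beside 23.9% and 23.2% of all genes tested. The groups overlapped for E2f4 and Ndn. Without the trend on length and GC, 2 of the 6 were separated upward and 0 downward, beside 34.2% of all genes in either direction.

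Impact, on chromosome 18, codes for an inhibitor of GCN2, the kinase that slows translation when amino acids run short, and acts by binding the GCN2 partner GCN1. Its normalized read count was 322, 219.6 and 235 in WT 1, WT 2 and WT 3 and 199 and 143 in KO 2 and KO 3. Both KO values lay below WT (WT mean 259 ± 55.4, SD, n = 3, and KO mean 171 ± 40.1, SD, n = 2). The log2 fold change was -0.59 (SE 0.33, 95% interval -1.35 to 0.16, limma adjusted p = 0.269). Without the trend on length and GC it was 0.011 (limma adjusted p = 0.989, in alternatives that ranged from 0.128 to 0.989), and the groups overlapped. The direction of Impact therefore depends on that step.

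In the GCN2 arm limma called 0 genes, with 1, Sesn2, at an unadjusted p under 0.05. Of 9 genes, all tested, 3 were separated upward (Sesn2, Ddit3 and Atf4, beside 23.9% of all genes) and Impact downward (23.2%). Without the trend on length and GC, 0 of the 9 were separated in either direction, beside 34.2% of all genes. In the list edgeR and DESeq2 called 0 at 2-fold. Atf4 turned from 0.22 to -0.05 without that trend. Eif2ak4, the gene of GCN2, had a normalized count of 852, 823 and 508 in WT and 821 and 1104 in KO, and Gcn1 (as Gcn1l1) had 3196, 4434 and 2503 in WT and 3618 and 5889.5 in KO. Both overlapped. Sesn2, a stress-induced brake on mTORC1, had 533, 549 and 476 in WT and 748 and 1169 in KO (log2 fold change 0.85, limma adjusted p = 0.0941), and its difference was 0.22 without the trend (limma adjusted p = 0.608). Ddit3, which codes for CHOP, had 351, 309 and 308 in WT and 385 and 375 in KO, with a log2 fold change of 0.24 that became -0.10 when the trend was removed. Gcn1l1 changed sign in the same way.

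Plagl1 codes for a zinc finger factor that acts on other imprinted genes and lies on chromosome 10 from 13060504 to 13131694. Its normalized read count was 0, 15.6 and 18 in WT 1, WT 2 and WT 3 and 0 and 1.52 in KO 2 and KO 3, from 0, 18, 21, 0 and 1 reads. It passed the filter through WT 2 and WT 3 alone. WT 1 and KO 2 were both at 0, so the groups overlapped, and a log2 fold change of -2.10 had an SE of 1.73 (limma adjusted p = 0.446). Plagl1 thus had at most 21 reads in any library.

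Since Dlk1 was read in KO 3 alone beyond the floor, the Notch pathway, on which DLK1 acts as a noncanonical ligand, was listed as well. Of 12 genes 8 were tested, limma called 0 (4 at an unadjusted p under 0.05), edgeR called 0, and DESeq2 called 2 higher, Jag2 and Hes1, beside 4.17% of all genes. The groups were separated upward for 4 of the 8 and downward for 1, beside 23.9% and 23.2% of all genes tested, and without the trend on length and GC for 3 in each direction, beside 34.2% in all. Jag2, a Notch ligand gene, had a normalized count of 58.3, 75.5 and 77.1 in WT and 245 and 1199.8 in KO (limma log2 fold change 2.94, SE 0.61, adjusted p = 0.0815). Jag1, its paralog, went the other way at 87.4, 95.5 and 88.3 in WT and 46.3 and 7.59 in KO (limma log2 fold change -2.18, SE 0.73, adjusted p = 0.110). Notch3 was low at 15.0, 20 and 0 in WT and 42.1 and 100.2 in KO (limma adjusted p = 0.158). Notch1, a receptor of the pathway, overlapped at 829, 1421 and 1010.3 in WT and 1107 and 875 in KO. Hes1, a target gene of the pathway, had 40.8, 17.4 and 39.4 in WT and 105 and 111 in KO (limma log2 fold change 1.79, SE 0.56, adjusted p = 0.101).

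Beyond the 10 growth regulators, 51 further imprinted genes were listed, 25 maternally and 26 paternally expressed, and 28 of them were tested. limma, edgeR and DESeq2 called 0 of the 28 at 2-fold, with 4 at an unadjusted limma p under 0.05. Both KO values lay above WT for 7 and below for 6, while 15 overlapped, and 13 of 28 had a log2 fold change above 0. Their median log2 fold change was -0.14, beside 0.02 over all genes tested. The 17 tested maternally expressed genes had 6 separated upward and 2 downward, and the 11 paternally expressed ones had 1 upward and 4 downward, where 23.9% of all genes tested were separated upward and 23.2% downward. Without the trend on length and GC these counts became 2 upward and 3 downward for the maternally expressed genes and 2 upward and 1 downward for the others, beside 34.2% of all genes in either direction. The medians of these groups were -0.09 and -0.22. Without the trend on length and GC they were 0.04 and 0.08, so that their signs changed as well. Mest, a paternally expressed hydrolase gene, had a normalized count of 94.1, 82.4 and 78.0 in WT and 55.5 and 31.9 in KO (limma log2 fold change -0.99, SE 0.47, adjusted p = 0.207). Copg2, the neighbour of Mest, had 2265, 1859 and 2574 in WT and 1547 and 823 in KO (limma log2 fold change -0.97, SE 0.28, adjusted p = 0.0921). Tfpi2 was low at 6.66, 16.5 and 18.9 in WT and 4.11 and 4.56 in KO (log2 fold change -1.38, limma adjusted p = 0.378). It passed the filter through WT 2 and WT 3 alone, and it is 1 of the 2 maternally expressed genes counted above as separated downward. Gnas, which codes for the stimulatory G protein subunit, had the most reads of the 28, at 17562, 19738 and 18359 in WT and 24521 and 30657 in KO (log2 fold change 0.57, limma adjusted p = 0.105), and its difference was -0.01 with the trend removed.

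**Figure D4:**
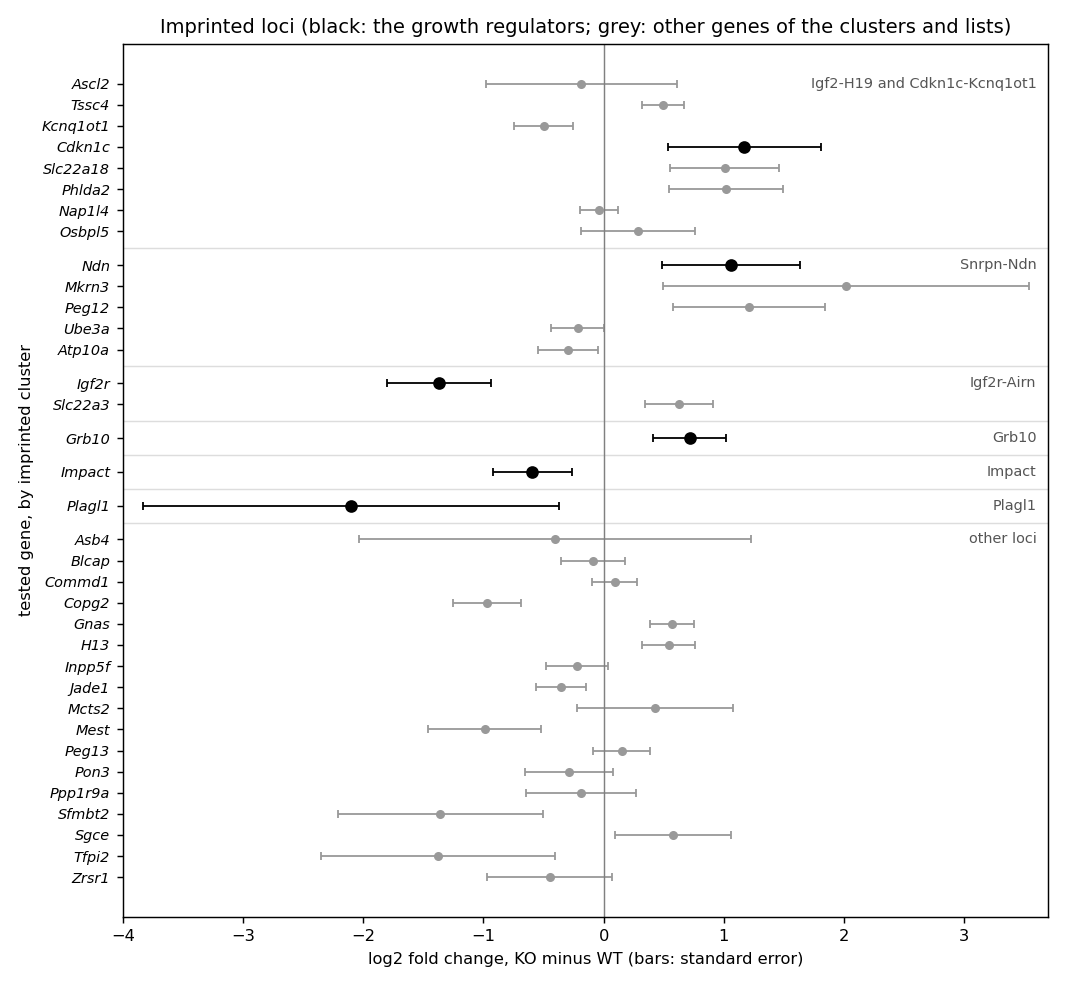
Log2 fold change (KO minus WT, bars are standard errors) of the tested imprinted genes and of Nap1l4, grouped by cluster, with the growth regulators in black and the others in grey. Igf2r lies at -1.37 and its neighbour Slc22a3 at 0.63, Cdkn1c at 1.17 and Kcnq1ot1 at -0.50 (0.12 without the trend on length and GC), while Mest (-0.99) and its neighbour Copg2 (-0.97) lie on the same side.

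The factors that keep imprints in place were measured in the same libraries. Of 12 genes 11 were tested, limma (5 at an unadjusted p under 0.05), edgeR and DESeq2 called 0 at 2-fold, and 7 were separated, 2 upward and 5 downward, beside 23.9% and 23.2% of all genes tested. Zfp445, one of the zinc finger proteins that guard imprinted control regions, had a normalized count of 1390.3, 1529 and 1307 in WT and 974 and 544 in KO (limma log2 fold change -0.95, SE 0.27, adjusted p = 0.0888). Zfp57, the gene of another, was low and overlapped at 25.0, 31.2 and 6.94 in WT and 15.4 and 31.9 in KO. Ehmt2, a histone H3 lysine methyltransferase gene, had 1329, 1968 and 1611 in WT and 2510.2 and 3824 in KO (limma log2 fold change 0.94, SE 0.25, adjusted p = 0.0841), and its difference was 0.15 without the trend on length and GC. Arid4a, which codes for a chromatin factor of imprinted loci, had 1437, 1254 and 1608 in WT and 934 and 778 in KO (limma log2 fold change -0.74, SE 0.20, adjusted p = 0.0879). Zfp445 and Arid4a stood at -0.45 and -0.29 without the trend, where 1 gene of the list was separated upward and 6 downward, beside 34.2% of all genes in either direction. The maintenance methyltransferase gene Dnmt1 overlapped between the groups.

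Fold changes across all genes moved with base composition, which bears on these genes. Among 13015 genes with a length and GC content, the decile with the lowest GC content had a median log2 fold change of -0.79 and the decile with the highest one of 0.74. Cdkn1c, with 59.4% GC, fell in the highest decile, Impact, with 42.1%, in the second lowest, Ndn and Plagl1 in the third, Grb10 in the fifth and Igf2r in the sixth. After subtraction of a linear trend on length and GC content in every library, Igf2r stood at -1.48, Grb10 at 0.83, Cdkn1c at 0.51, Ndn at 1.48, Plagl1 at -1.83 and Impact at 0.01. Igf2r and Grb10, from the middle of the range, kept both direction and separation. Ndn then became separated, Impact overlapped, and 3 of the 6 were separated as before, against 34.2% of the 13015 genes. limma called 0 of the 6 in this form (3 at an unadjusted p under 0.05), with adjusted p from 0.225 for Igf2r to 0.989 for Impact.

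**Figure D5:**
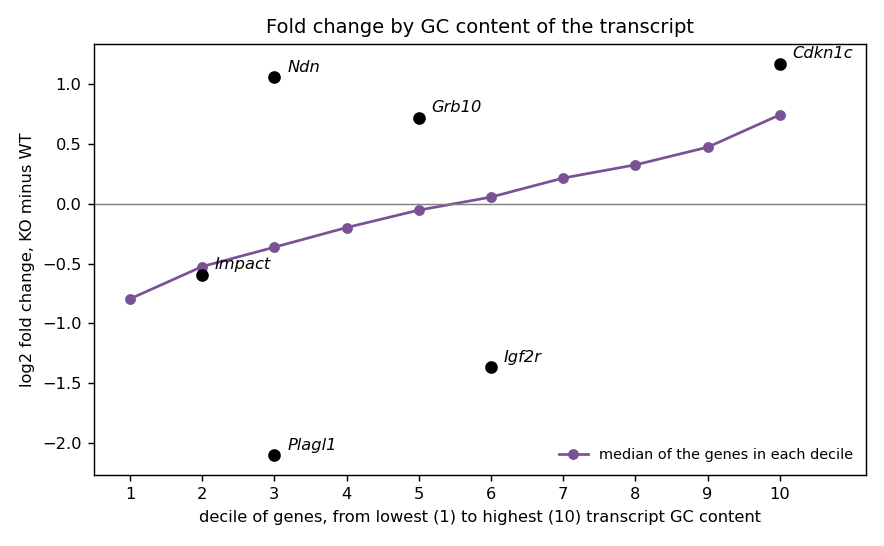
Median log2 fold change (KO minus WT) of all tested genes in each decile of transcript GC content (purple line) with the 6 tested members at their own decile (black). The line runs from -0.79 to 0.74, Impact lies near it, and Igf2r (-1.37), Plagl1 (-2.10), Ndn (1.06) and Grb10 (0.72) lie away from it.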

How the data were processed

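HSC RNA was profiled by bulk RNA-seq from 3 WT and 2 KO libraries made with the SMART-Seq v4 kit, which does not mark strand. The authors deposited a table of normalized signal, in which read counts were divided by a size factor per library. The submitters' processing notes name STAR, featureCounts, DESeq2 and mm10, and annotation and strand setting are not given in the sources used here. A second table with the authors' own fold changes and p-values was not used. Whole reads were recovered from the step of each column (0.833 to 1.52) for 100% of the values, within 0.01 of a whole number. No molecular identifiers were stated, so intervals cover counting error only, and p-values measure the spread between these libraries. The paper's reporting summary states in general that every experiment had 3 or more independent biological replicates, while KO held 2 libraries here. Counts of every 2 libraries differed by more than sampling noise.

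limma (version 3.58.1, R 4.3.3, intensity trend in the variance) was fitted to log2(value + 1) of the genes that reached 10 in 2 or more libraries, which understates the change of low genes. edgeR (version 4.0.16, quasi-likelihood) and DESeq2 (version 1.42.0) were run on the recovered reads. p-values were two-sided and Benjamini-Hochberg adjusted over all genes tested. Other alternatives covered the pseudocount, filter, scaling, library weights, replicate number, a trend on transcript length and GC content (GENCODE M21), and each library left out. Scripts were tested on simulated data.

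The 10 members and all lists were chosen with earlier results of these data known. Genes named beside the members were preset partners and, from each list, up to 3 tested genes with the largest log2 fold change among those with separated groups, and others named were chosen after their values were seen. Hymai was not matched, and Gcn1 was matched as Gcn1l1. Of the 10 listed genes that mark cells the gate leaves out, 8 were found, and Ly6g was not among them. Gene lists are described by counts and medians.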

Additional observations from a re-analysis of the deposited data

How the results depend on the processing

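The count of members called by limma, 0, remained 0 in the alternatives for pseudocount, filter, scaling, weights, trend, replicate number and edgeR, and was 1 by DESeq2 and 0 to 3 when 1 library was left out. The count of separated members, 3, was unmoved by scaling and trend removal and ran from 3 to 5 when 1 library was left out. Of 88 recomputed fold changes of the 6 tested members, 82 kept their direction and their side of an adjusted p of 0.05, 4 went under it, all at 2-fold or more, and 2 changed sign. Those 2 were Impact at 0.011 with the length and GC trend removed and at 0.13 with the replicate number as a term as well. Of 448 recomputed fold changes of 30 other genes (Syncrip and those of the naming rule), 399 were stable, 7 no longer had an adjusted p under 0.05, 20 gained it (12 at 2-fold or more, 8 below), and 22 changed sign. All 7 losses were those of Syncrip: with all genes above 0 kept (adjusted p = 0.0503), with array weights (0.0594), with the trend removed (-1.47, 0.138) and the replicate number in that fit (-1.42, 0.117), and without WT 1, WT 2 or WT 3 (0.164 to 0.209). With the trend removed the values of these 30 that changed sign were 0.22 for Igf1, -0.17 for Gcn1l1, 0.12 for Kcnq1ot1, -0.0060 for Gnas, -0.10 for Ddit3, 0.16 for Bmi1 and -0.16 for E2f1. With the replicate number in that fit they were 0.20 for Igf1, -0.090 for Gcn1l1, 0.33 for Kcnq1ot1, -0.044 for Ddit3, 0.28 for Bmi1 and -0.20 for E2f1. With single libraries left out values of Igf1, Igf1r, Insr and Notch1 spanned 0, from -1.38 to 0.026 for Igf1 (above 0 without KO 3), -0.034 to 0.13 for Igf1r (below 0 without WT 1), -0.46 to 0.54 for Insr (below 0 without KO 2 or WT 1) and -0.28 to 0.10 for Notch1 (above 0 without KO 3 or WT 2). With array weights Insr was at -0.041. The other tested genes that the report names were recomputed only by edgeR, by DESeq2 and with the trend removed. With the trend removed Akt1 (-0.16), Atf4 (-0.045), Tssc4 (-0.15), Osbpl5 (-0.19), Pik3ca (0.14), Dnmt1 (-0.22), Kit (0.045), Elane (-0.47) and Prtn3 (-0.44) changed sign. The cause of these changes of sign was not tested.

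The labels give WT and KO libraries the numbers 2 and 3. Deviations of same-numbered libraries from their group means correlated at -0.06 (number 2) and -0.18 (number 3) across genes. With 2 KO libraries, the deviations of KO 2 and KO 3 are mirror images of each other. The correlations therefore cannot decide whether the numbers mark pairs. With the replicate number as a block limma called 0 members, Igf2r was at -1.61 (adjusted p = 0.103), Igf1r at -0.034 and Insr at -0.11.

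Depth limits H19, Peg3, Meg3, Dlk1 and Plagl1, which were at or near the floor, and 2 KO libraries limit the rest. Leaving out a KO library leaves 1, which is assumed to vary like the WT libraries. DESeq2 and edgeR were not run with single libraries left out. TMM and upper-quartile scaling moved the median of all genes from 0.02 to 0.01 and 0.06.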

Other observations

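Among genes of the IGF axis that were below the filter and so in no comparison, Igfbp5 had a normalized read count of 65.1 in WT 2 and 0 in the other 4 libraries, and Igfbp3 had 45.1 in WT 2, 6.17 in KO 2 and 0 in the other 3. Both code for proteins that bind IGFs outside the cell. WT 2 was also the library with the highest level of the stromal genes Cxcl12 (799) and Col1a1 (428), which were at 66.0 and 36.0 or lower in the other libraries.

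Irs1, the gene of an insulin receptor substrate, had 5.14 in KO 2 and 0 elsewhere, and KO 2 was also the library with 7687 normalized reads of Fabp4 and 5622 of Ucp1, genes of fat cells. Irs2 was present in all libraries at 723 to 1993.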
